A study of Mus musculus with 8 samples.

Results

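The MYC network and the nucleolar machinery that builds ribosomes were followed through 34 genes of a mouse RNA-seq table that holds 32499 genes. The members were taken by gene symbol. They comprised 6 genes of the MYC network and 28 genes of ribosome biogenesis, among them 4 nucleolar chaperones and helicases, 3 box C/D and 3 H/ACA snoRNP proteins, 6 factors of small subunit processing, 9 of large subunit processing and 3 subunits of RNA polymerase I. All 34 had a row in the table, and all 34 passed the filter on low counts, beside 15021 genes tested in all. RNA came from neural progenitor cells of C57BL/6 embryos at embryonic day 14, released from neural tubes with collagenase and isolated with the fluorescent dye NeuroFluor CDr3. The 4 libraries labelled 53BP1 KO (KO-labelled below) came from embryos whose 53bp1 locus carried an in-frame deletion made with CRISPR, inherited from the father, and the Trp53bp1tm1Jc allele of the mother. The 4 control libraries came from wild-type embryos. No transgene or Cre is named in the labels.

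MYC and its relative N-MYC are transcription factors that bind DNA as partners of MAX, at a short sequence called the E-box. MXD proteins and MGA also pair with MAX and oppose MYC at the same sites. Genes of ribosome biogenesis are the textbook targets of MYC. Their products transcribe ribosomal RNA in the nucleolus, modify it with guide snoRNAs and cut and fold it into the small and large subunits. Dividing neural progenitors have prominent nucleoli, and Mycn is known as the family member of the embryonic nervous system.

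Total counts spanned 11081419 to 24339621 per KO-labelled library and 15343046 to 18189045 per control. Trp53bp1 averaged 27.1 ± 6.36 CPM in the KO-labelled libraries and 26.8 ± 0.349 CPM in the controls (SD, n = 4 each). Its level thus did not tell the groups apart, and the reason was not tested. Xist, which marks cells with an inactive X chromosome, had 9 to 16 counts in the KO-labelled libraries and 23853 to 26134 counts in the controls. Ddx3y, on the Y chromosome, had 579 to 1064 counts in the KO-labelled libraries and 0 in each control. The KO-labelled libraries thus had male expression and the controls female expression, and genotype and sex cannot be told apart in any comparison below. None of the 34 members lies on a sex chromosome; they lie on 16 autosomes. The progenitor marker Fabp7, whose protein the dye binds, was high in both groups, at 6315 to 9392 CPM in the KO-labelled libraries and 6636 to 9024 CPM in the controls. Progenitor markers as a list were not level, with 6 of 11 that rose, 3 that fell and a median log2 fold change of 0.31. Over all genes tested, 16.1% rose and 13.9% fell. Slc1a3, a glial glutamate transporter of progenitors, had 1315 to 1482 CPM in the KO-labelled libraries and 979 to 1217 CPM in the controls. Summed markers of other cells were apart for some lists only. The 8 neuron markers summed to 368 to 445 CPM in the KO-labelled libraries and 399 to 523 CPM in the controls, which overlap. Map2 alone had 296 to 373 CPM in the KO-labelled libraries and 336 to 444 CPM in the controls. Of the 8 neuron markers 2 rose and 2 fell, against 16.1% and 13.9% of all genes tested. Microglial and erythroid sums overlapped too. The 9 mesenchymal markers summed to 21.6 to 27.7 CPM in the KO-labelled libraries and 50.0 to 111 CPM in the controls, and 6 endothelial markers to 2.98 to 7.06 CPM in the KO-labelled libraries and 8.77 to 14.9 CPM in the controls. The 7 astrocyte markers summed to 943 to 1088 CPM in the KO-labelled libraries and 208 to 354 CPM in the controls. The 6 microglial markers summed to at most 3.31 CPM in any KO-labelled library and 5.32 CPM in any control, and of 7 erythroid markers Hba-a1 and Hba-a2 had 0 counts throughout. The part of these cells in the results was not tested. The labels name a pair of HiSeq sequencer models and do not say which library was run on which. In bulk RNA, fewer cells that express a gene and less RNA per cell cannot be told apart.

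The promoters of the members were searched for the E-box. RefSeq promoter windows of GRCm38.p6, from 250 bases before the annotated transcript start to 50 bases after it, were found for 29 of the 34 members. The search was for CACGTG, the canonical E-box, whose reverse complement has the same letters. It was present in 6 of the 29, or 20.7%, against 11.3% of 10665 tested genes with a window and 8.09% of all 27025 genes of the RefSeq table. The 6 stretches of 30 bases that hold it are shown with the E-box in capitals, 5′ to 3′ on the gene's strand, since they are the letters a MYC-MAX pair is known to recognise.
Mxd4, chr5:34187912-34187941, minus strand: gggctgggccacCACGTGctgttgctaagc
Nop2, chr6:125131811-125131840, plus strand: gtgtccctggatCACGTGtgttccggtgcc
Utp20, chr10:88826765-88826794, minus strand: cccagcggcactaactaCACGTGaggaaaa
Pes1, chr11:3963965-3963994, plus strand: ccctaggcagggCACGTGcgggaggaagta
Max, chr12:76962234-76962263, minus strand: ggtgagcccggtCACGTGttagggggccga
Wdr43, chr17:71616220-71616249, plus strand: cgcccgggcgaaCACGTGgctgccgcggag
Among the bases before the start alone, CACGTG was in 2 of 29 members, or 6.90%, and in 9.61% of the tested genes. Of the 6 genes, Nop2, Utp20 and Pes1 fell in the KO-labelled libraries, Max rose, and Mxd4 and Wdr43 did not pass the test. The hexamer was in 3 of 12 members that fell, in 1 of 3 that rose and in 2 of 14 that did not pass. These are matches of letters only.

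Both directions occurred among the members, and more of them fell than rose. With edgeR (quasi-likelihood F-test, p-values adjusted after Benjamini and Hochberg across the 15021 genes, threshold 0.05), 14 of the 34 fell in the KO-labelled libraries (41.2%) and 3 rose (8.82%). Of all genes tested, 13.9% fell and 16.1% rose, 30.0% in either direction. The members were chosen with earlier results of these data known, so the excess of falls is a description and no test. In 14 of the 34 members the KO-labelled and control values were fully separate, as they were in 29.9% of all genes tested. The number of members that fell was 9 when KO-labelled 4 was left out, a setting in which 1497 of all genes fell, against 2087 with every library. It was 8 without a filter on low counts, where 1754 of all genes fell and 2879 rose and the median log2 fold change was -0.13 over all genes. The members that rose were Mycn, Max and Nop14. The members had a median log2 fold change of -0.24, and that of all genes tested was 0.00. Of the 34 estimates 25 lay below 0, as did 7499 of 15021 over all genes tested.

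**Figure D1:**
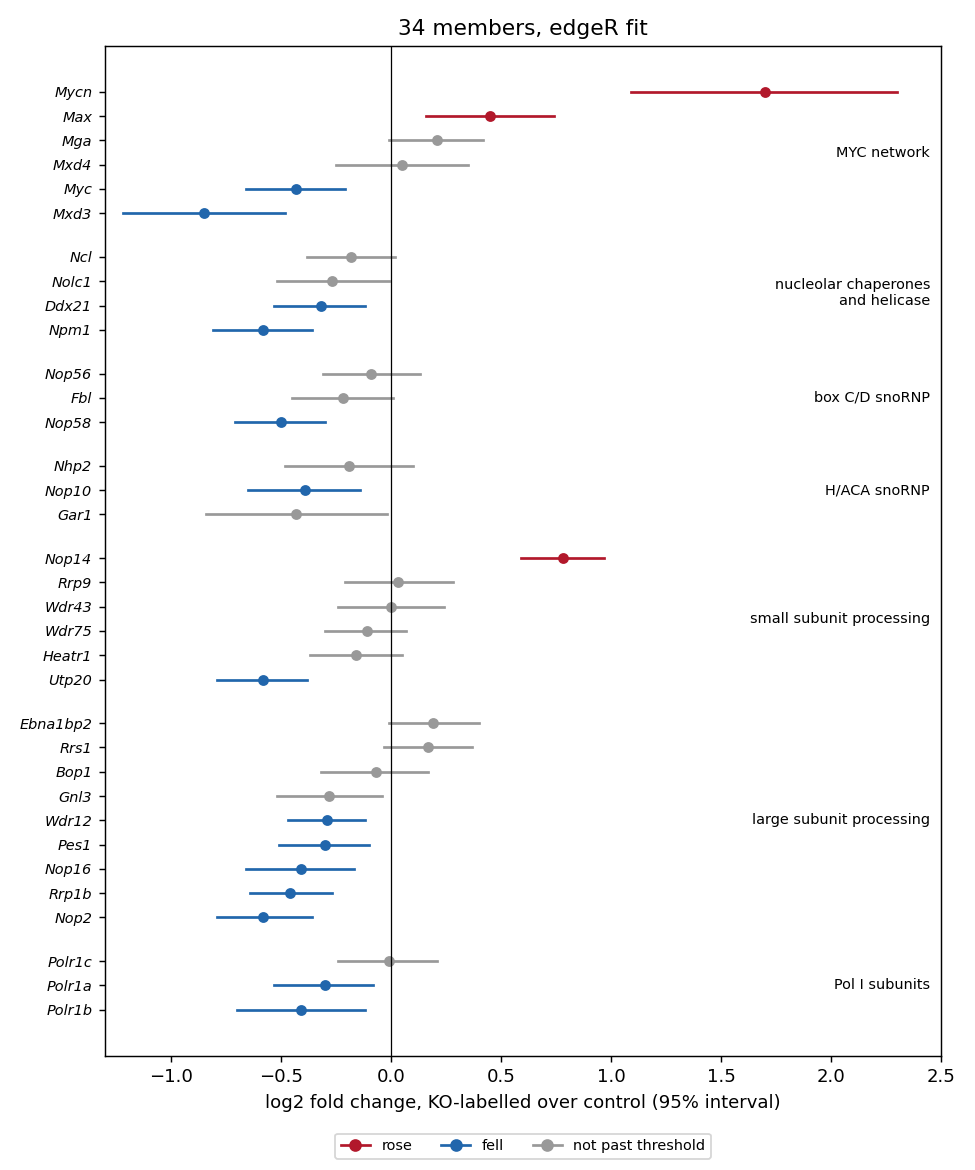
Log2 fold change of each of the 34 members, KO-labelled over control, with its 95% interval from the edgeR fit; genes are grouped by role and coloured by whether they rose, fell or did not pass an adjusted p of 0.05. The intervals run mostly to the left of 0 in the biogenesis groups, with Nop14 (0.78) alone on the right among the genes that passed there, and the MYC network spans from Mxd3 (-0.85) to Mycn (1.70).

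The MYC factors moved apart. Myc, the proto-oncogene that gives the network its name, had 13.8, 12.6, 13.0 and 13.0 CPM in the KO-labelled libraries, against 18.6, 16.7, 16.6 and 19.0 CPM in the controls. Every KO-labelled library lay below every control, and the spread within each group was small. The log2 fold change was -0.43 (SE 0.10, edgeR adjusted p = 0.00629), a decrease to 0.741 of the control level; without a filter on low counts the adjusted p was 0.0624. Mycn, which encodes N-MYC, had 2.76, 2.79, 2.65 and 4.44 CPM in the KO-labelled libraries, against 1.15, 0.651, 1.16 and 0.970 CPM in the controls. The groups did not overlap, and KO-labelled 4 was well above the other 3. The estimated log2 difference of 1.70 (SE 0.28, edgeR adjusted p = 0.000426, 95% interval 1.09 to 2.30) was the largest of the 34, on 32 to 106 counts in the KO-labelled libraries and 12 to 21 counts in the controls. At these counts the size of the fold is known less well than its direction.

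Relative to Myc, Mycn took a larger share of the pair in the KO-labelled libraries. Of the counts of both genes together, Mycn held 16.6%, 18.1%, 16.9% and 25.5% in the KO-labelled libraries, against 5.83%, 3.76%, 6.52% and 4.85% in the controls. The log2 ratio of Mycn to Myc counts averaged -2.08 ± 0.36 in the KO-labelled libraries and -4.16 ± 0.36 in the controls (SD, n = 4 each). The difference of 2.09 restates the opposite directions of the pair, each of which already separated the groups, and is given as a description. Myc stayed the more abundant RNA of the pair in every library. Per kilobase of annotated exon in GENCODE M21, which may not be the annotation of the counting, the mean level of Mycn was 0.959 and that of Myc 4.82 CPM per kb in the KO-labelled libraries, and 0.298 and 6.52 CPM per kb in the controls. Mycn was the lowest of the 34 members on that scale in both groups.

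Max, the shared partner of MYC, MXD and MGA proteins, had 10.4, 8.19, 9.58 and 9.10 CPM in the KO-labelled libraries, against 7.56, 6.40, 7.48 and 5.95 CPM in the controls. The groups did not overlap, by a narrow margin between KO-labelled 2 and control 1. The log2 fold change was 0.45 (SE 0.14, edgeR adjusted p = 0.0232), and the call was lost without KO-labelled 1, KO-labelled 3, KO-labelled 4 or control 2, with adjusted p between 0.0523 and 0.0819 and log2 fold changes of 0.40 to 0.46.

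The MXD repressors did not share a direction. Mxd3, a MAX partner expressed in S phase, had 7.58, 8.28, 9.53 and 8.22 CPM in the KO-labelled libraries, against 16.2, 11.2, 12.6 and 20.4 CPM in the controls. All KO-labelled libraries were lower, and the controls varied widely among themselves. Its log2 fold change of -0.85 (SE 0.17, edgeR adjusted p = 0.00199) was the most negative of the 34. Its exons overlap those of Prelid1 on the other strand in GENCODE M21, and since the strand setting of the counting is not given, reads of the overlap cannot be told apart; Prelid1 itself had 17.9 CPM in both groups. Mxd4, linked to differentiation and cell cycle exit, had 267, 303, 262 and 314 CPM in the KO-labelled libraries, against 333, 277, 307 and 192 CPM in the controls. The groups overlapped throughout, with control 4 lowest of all, and the log2 fold change of 0.05 had a 95% interval of -0.25 to 0.35; it was -0.10 without control 4 and -0.01 without KO-labelled 4. Mga, a large MAX partner that also carries a T-box domain, had 102 to 130.3 CPM in the KO-labelled libraries and 92.7 to 116 CPM in the controls, with a log2 fold change of 0.21 (edgeR adjusted p = 0.145). Mga lies on chromosome 2, as does Trp53bp1.

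Of 7 further genes of the network, 2 rose (28.6%) and none fell, against 16.1% and 13.9% of all genes tested. Mxd1, the founding MXD gene, averaged 42.4 ± 4.34 CPM in the KO-labelled libraries and 26.1 ± 6.51 CPM in the controls (SD, n = 4 each; log2 fold change 0.69, SE 0.16, edgeR adjusted p = 0.00418). Mxi1, a further MXD-type repressor, averaged 6.31 ± 1.51 CPM in the KO-labelled libraries and 4.13 ± 0.629 CPM in the controls (0.60, SE 0.20, edgeR adjusted p = 0.0334), with overlapping groups. The 2 rises became 1 without KO-labelled 2, 3 or 4 or control 2 or 3, and 1 with the replicate block. The log2 fold changes of Mxd1 and Mxi1 were positive and that of Mxd3 was negative.

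**Figure D2:**
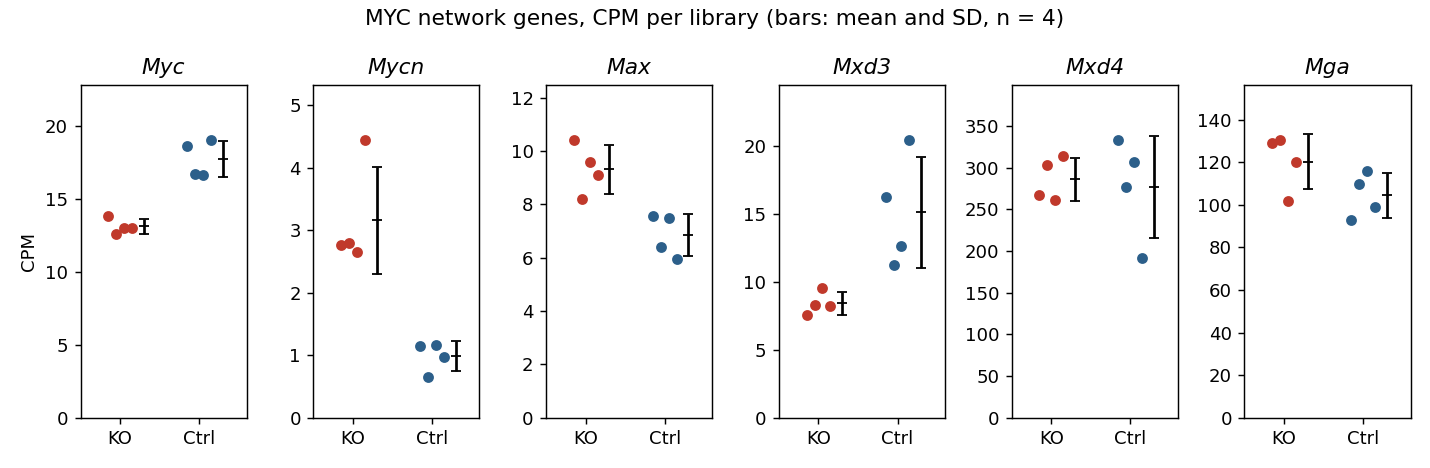
CPM of the 6 MYC network members in each KO-labelled (red) and control (blue) library on separate linear axes from 0, with mean and SD (n = 4 each). Mycn and Max lie higher in every KO-labelled library, Myc and Mxd3 lie lower, and Mxd4 and Mga overlap.

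The 28 biogenesis genes leaned lower together. Of these, 12 fell (42.9%) and 1 rose, against 13.9% and 16.1% of all genes tested. The median log2 fold change was -0.27, and 23 of 28 estimates lay below 0, as did 7499 of 15021 over all genes tested. These 28 genes were chosen with earlier results of these data known. Of 129 further biogenesis genes, 17.8% fell and 3.88% rose. The summed level of the 28 was 3064, 2677, 2871 and 2744 CPM in the KO-labelled libraries. In the controls it was 3246, 3143, 3219 and 3596 CPM. Each KO-labelled sum was below each control sum, and the mean was 14.0% lower. The largest fall of a single gene was to 0.667 of the control level, in Utp20. Of these 28 genes, 7 fell when KO-labelled 4 was left out and 7 without a filter on low counts. In the same libraries all 14 genes of a G1/S list fell (median log2 fold change -1.02) and 11 of 12 of a G2/M list (median -0.54). Those lists summed to 759 to 937 CPM and 3121 to 3962 CPM in the KO-labelled libraries, against 1491 to 2047 CPM and 5710 to 6727 CPM in the controls; their part in the lower level of the biogenesis genes was not tested.

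**Figure D3:**
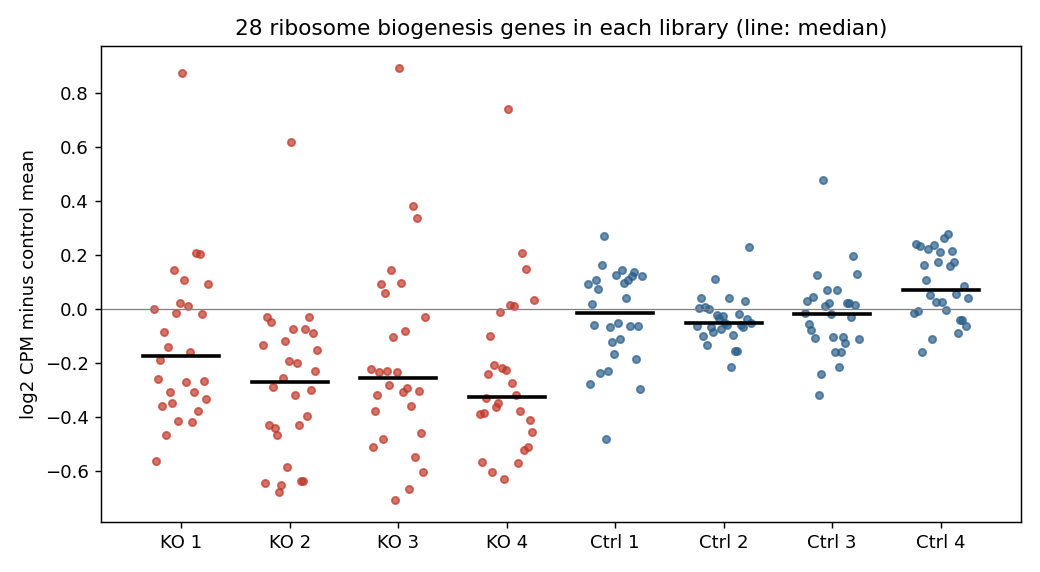
Level of each of the 28 biogenesis genes in each library as log2 CPM minus the gene's mean log2 CPM in the controls; points are genes and black lines are medians. Medians run from -0.33 (KO-labelled 4) to -0.18 (KO-labelled 1) in the KO-labelled libraries and from -0.05 to 0.07 in the controls, and the high point in each KO-labelled library is Nop14.

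Within the groups the biogenesis genes also varied by library. KO-labelled 1 held the highest value of its group for 14 of the 28 genes and the lowest for 1, whereas KO-labelled 2, the library with the fewest counts, held the lowest for 16. Among the controls, control 4 was highest for 14 genes. These shifts within a group, medians of -0.09 to 0.08 on the log2 scale around the group means, were smaller than the median difference between the groups.

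The nucleolar chaperones and the helicase had 2 falls among 4 genes, where 13.9% of all genes tested fell. Npm1 encodes nucleophosmin, an abundant chaperone of nucleolar assembly, and had 66.9, 63.2, 69.4 and 66.7 CPM in the KO-labelled libraries, against 81.5, 99.2, 101 and 117 CPM in the controls. The KO-labelled values were tightly grouped below all controls (log2 fold change -0.58, SE 0.10, edgeR adjusted p = 0.000832). Ddx21, an RNA helicase that links Pol I transcription to processing, had 389, 329, 356 and 353 CPM in the KO-labelled libraries, against 426, 414, 420.1 and 522 CPM in the controls. Control 4 stood far above the rest, but the groups did not overlap (-0.32, SE 0.10, edgeR adjusted p = 0.0209). Without KO-labelled 4 the adjusted p of Ddx21 was 0.0569, and without a filter on low counts it was 0.105. Ncl, which encodes nucleolin, had 356, 324, 305 and 272 CPM in the KO-labelled libraries, against 379.6, 340.3, 352 and 352 CPM in the controls; KO-labelled 1 reached into the control range and the log2 fold change of -0.18 did not pass (95% interval -0.38 to 0.02). Nolc1, a chaperone of snoRNPs, had 9.14 to 11.7 CPM in the KO-labelled libraries and 11.5 to 12.3 CPM in the controls (-0.27, edgeR adjusted p = 0.11, 0.0446 without KO-labelled 2 and 0.038 by voom).

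Among the snoRNP proteins the estimate was negative for 6 of 6 and passed for 2. Over all genes tested, 7499 of 15021 estimates were negative and 13.9% of genes fell. Box C/D particles carry the guide RNAs for methylation of ribosomal RNA. Nop58, one of their core proteins, had 104, 106, 103 and 94.7 CPM in the KO-labelled libraries, against 122, 144, 157 and 155 CPM in the controls. The groups were well apart (log2 fold change -0.50, SE 0.09, edgeR adjusted p = 0.00112). Its partner Nop56 had 77.9, 67.7, 88.2 and 77.2 CPM in the KO-labelled libraries and 87.0, 75.3, 76.8 and 92.6 CPM in the controls, fully interleaved, with a log2 fold change of -0.09 (95% interval -0.31 to 0.13). Fbl, the methyltransferase of the particle, had 17.3 to 21.5 CPM in the KO-labelled libraries and 19.9 to 23.9 CPM in the controls (-0.22, edgeR adjusted p = 0.136, and 0.0276 by voom). The 3 genes together summed to 191 to 209.9 CPM in the KO-labelled libraries and 233 to 267 CPM in the controls, without overlap. Of the 3, Nop58 alone did not overlap by itself, with means of 102 CPM in the KO-labelled libraries and 145 CPM in the controls. Nop56 averaged 77.8 CPM in the KO-labelled libraries and 82.9 CPM in the controls.

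H/ACA particles guide the conversion of uridine to pseudouridine. Nop10, the smallest core protein, had 86.4, 66.8, 91.2 and 83.3 CPM in the KO-labelled libraries, against 129, 101, 90.6 and 111 CPM in the controls. Control 3 lay just below KO-labelled 3, so the groups touched (log2 fold change -0.39, SE 0.12, edgeR adjusted p = 0.0235). The call was lost without KO-labelled 2, KO-labelled 4 or control 1, at adjusted p of 0.0555 to 0.076. Gar1 had a similar estimate (-0.43) with a wider error (SE 0.19, edgeR adjusted p = 0.109, 0.0285 without control 1 and 0.0351 by voom), on 4.18 to 5.41 CPM in the KO-labelled libraries and 4.71 to 9.16 CPM in the controls. Nhp2 had 23.4 to 33.7 CPM in the KO-labelled libraries and 25.9 to 37.7 CPM in the controls (-0.19, edgeR adjusted p = 0.322). Exons of Nhp2 overlap those of Rmnd5b on the other strand, which rose (0.389). Per kilobase of exon, the level of Nop10 was the highest of the 34 members in both groups, at 73.9 CPM per kb in the KO-labelled libraries and 97.1 CPM per kb in the controls.

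Of 13 further genes of snoRNP assembly, 5 fell (38.5%) and 1 rose, against 13.9% and 16.1% of all genes tested. The falls became 3 without KO-labelled 4 or without a filter on low counts. Dkc1, the pseudouridine synthase of H/ACA particles, averaged 105 ± 13.5 CPM in the KO-labelled libraries and 154 ± 11.9 CPM in the controls (SD, n = 4 each; log2 fold change -0.55, SE 0.10, edgeR adjusted p = 0.000984). Dkc1 is X-linked, and sex and group coincide. Shq1, which escorts dyskerin before assembly, fell too (-0.47, SE 0.11), as did Coil, which encodes the Cajal body protein coilin (-0.41, SE 0.09). The 1 rise was Znhit6 (0.34, SE 0.11), a box C/D assembly factor. It was lost without any 1 of KO-labelled 1, 2 and 4 and controls 2, 3 and 4, with the replicate block and with upper quartile scaling.

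Small subunit processing held the most divergent pair of the biogenesis genes, 1 fall and 1 rise among 6, with a median log2 fold change of -0.06. The shares of all genes tested that fell and rose were 13.9% and 16.1%. Utp20, a large scaffold of the small subunit processome, had 304, 269.8, 248 and 262 CPM in the KO-labelled libraries, against 372, 385, 411 and 457 CPM in the controls. The lowest control was well above the highest KO-labelled library (log2 fold change -0.58, SE 0.09, edgeR adjusted p = 0.00035). Nop14, a nucleolar protein of the same processome, went the other way with 205, 172, 208 and 187 CPM in the KO-labelled libraries, against 122, 108, 104 and 114 CPM in the controls. The gap between the groups was wider than the spread within either (0.78, SE 0.09, edgeR adjusted p = 1.87e-05), and the rise held in all 16 alternatives, at 0.74 to 0.85. An antisense gene, Gm15522, overlaps exons of Nop14 in GENCODE M21, and its reads cannot be told apart here. The tested neighbours of Nop14 did not pass, among them Mfsd10 (0.15, edgeR adjusted p = 0.673) and Grk4 (0.16, adjusted p = 0.483).

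The other 4 small subunit genes did not pass. Heatr1, a scaffold that also acts in Pol I transcription, had 209, 180.0, 175 and 176 CPM in the KO-labelled libraries, against 183, 202, 203 and 238 CPM in the controls. Without KO-labelled 1 the KO-labelled values would lie below all controls, but with it the groups overlapped (-0.16, edgeR adjusted p = 0.242). Heatr1 did not pass in the fit without KO-labelled 1 either (-0.22, edgeR adjusted p = 0.16). Its exons overlap those of Lgals8 on the other strand, which rose (0.87). Wdr43 averaged 124 ± 15.6 CPM in the KO-labelled libraries and 124 ± 16.3 CPM in the controls (0.00, 95% interval -0.24 to 0.24). Wdr75, a WD-repeat protein of the same early complex as Wdr43, had a log2 fold change of -0.11 (95% interval -0.30 to 0.07), and Rrp9, a U3 snoRNP protein, one of 0.03 (95% interval -0.21 to 0.28).

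Of 46 further genes of the small subunit processome, 7 fell and 3 rose, or 15.2% and 6.52%; the share that fell is near the 13.9% of all genes. Bms1, a GTPase of the processome, averaged 249.7 ± 12.9 CPM in the KO-labelled libraries and 339 ± 8.93 CPM in the controls (-0.44, SE 0.08), and Bysl, which acts late in the same pathway, averaged 111 ± 4.01 CPM in the KO-labelled libraries and 149 ± 11.4 CPM in the controls (-0.43, SE 0.08; n = 4 each, SD). Utp6 (-0.44) and the X-linked Utp14a (-0.39) fell as well. The 3 rises became 1 without KO-labelled 1, 3 or 4 or control 2 or 3, 7 without KO-labelled 2 and 8 by voom, and 3 fell and 6 rose without a filter on low counts.

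Of the 9 genes of large subunit processing, the largest of the biogenesis groups, 5 fell (55.6%) and none rose. The shares of all genes tested were 13.9% and 16.1%. Pes1, Bop1 and Wdr12 encode a complex that acts in the maturation of the large subunit. Wdr12 had 58.4, 56.5, 56.9 and 58.2 CPM in the KO-labelled libraries, against 65.2, 72.5, 74.0 and 70.2 CPM in the controls. The KO-labelled values were nearly equal and all lower (log2 fold change -0.29, SE 0.08, edgeR adjusted p = 0.0156); the adjusted p was 0.055 without control 3 and 0.202 without a filter on low counts. Exons of Wdr12 overlap those of Carf on the other strand, which averaged 49.2 CPM in the KO-labelled libraries and 43.5 CPM in the controls. Pes1 had 114, 94.5, 104 and 102 CPM in the KO-labelled libraries, against 136, 119, 114 and 142 CPM in the controls. KO-labelled 1 and control 3 met at the boundary (-0.30, SE 0.10, edgeR adjusted p = 0.0286). The call of Pes1 was lost without KO-labelled 2, KO-labelled 4, control 1 or control 4 (adjusted p 0.0525 to 0.0777), by voom (0.0534) and without a filter on low counts (0.155). Bop1, the third partner, had 132, 114, 124 and 132 CPM in the KO-labelled libraries and 145, 113, 113 and 159 CPM in the controls. The KO-labelled libraries lay inside the range of the controls, and the estimate of -0.07 (95% interval -0.32 to 0.17) turned to 0.01 without control 4 and 0.08 by voom.

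Nop2, a methyltransferase of the large subunit RNA and a long-known proliferation antigen, had 143, 123, 120.4 and 129 CPM in the KO-labelled libraries, against 197, 172, 178 and 222 CPM in the controls. All KO-labelled libraries were lower (log2 fold change -0.58, SE 0.10, edgeR adjusted p = 0.000553). The sign and the call of Nop2 held in all 16 alternatives. Rrp1b, a nucleolar protein of the large subunit pathway, had 75.7, 74.7, 67.2 and 68.5 CPM in the KO-labelled libraries, against 107, 94.3, 99.9 and 92.4 CPM in the controls, with a clear gap (-0.46, SE 0.09, edgeR adjusted p = 0.00112). Nop16 had 25.3, 20.1, 24.4 and 24.1 CPM in the KO-labelled libraries, against 33.7, 28.1, 28.7 and 35.3 CPM in the controls, also without overlap (-0.41, SE 0.11, edgeR adjusted p = 0.0126).

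The remaining 3 large subunit genes split. Gnl3, which encodes the stem cell nucleolar GTPase nucleostemin, had 82.9, 68.2, 68.0 and 59.0 CPM in the KO-labelled libraries, against 73.9, 85.7, 96.3 and 81.7 CPM in the controls. KO-labelled 1 lay within the controls, and the estimate of -0.28 had an adjusted p of 0.079 by edgeR. It passed without KO-labelled 1 or control 1 (0.0325 to 0.0494), by voom (0.0265) and with upper quartile scaling (0.0483). Its exons overlap those of Pbrm1 on the other strand, which averaged 125 CPM in the KO-labelled libraries and 142 CPM in the controls. Ebna1bp2 had 129.8 to 178 CPM in the KO-labelled libraries and 131 to 142 CPM in the controls (0.19, edgeR adjusted p = 0.15, and 0.0286 without KO-labelled 2). Rrs1, a factor of 5S ribonucleoprotein recruitment in yeast, had 114 to 147 CPM in the KO-labelled libraries and 111 to 128 CPM in the controls (0.17, edgeR adjusted p = 0.193).

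Of 51 further large subunit assembly genes, 6 fell (11.8%) and 1 rose, a share of falls below the 13.9% of all genes. Of the 51 estimates 40 were negative (median -0.14), as were 7499 of 15021 over all genes tested. The count of falls was sensitive. It was 3 without KO-labelled 1, KO-labelled 4 or control 3, and 2 without a filter on low counts. It was 10 by DESeq2, 12 by voom and 13 with upper quartile scaling. Urb2 averaged 14.1 ± 2.12 CPM in the KO-labelled libraries and 21.7 ± 0.948 CPM in the controls (SD, n = 4 each; -0.63, SE 0.12), and Nol8 (-0.51) and Pwp1 (-0.41) fell too. The rise was in Nsa2 (0.36, SE 0.10), and it was lost without KO-labelled 3 or control 2 or 3, while 2 rose without control 4.

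RNA polymerase I transcribes the ribosomal RNA precursor. Polr1a, its largest subunit, had 28.9, 32.7, 25.3 and 26.2 CPM in the KO-labelled libraries, against 33.3, 33.9, 35.2 and 36.9 CPM in the controls. The groups did not overlap, with KO-labelled 2 close to the controls (log2 fold change -0.30, SE 0.10, edgeR adjusted p = 0.0376). Polr1b, the second largest subunit, had 12.2, 13.1, 10.1 and 11.2 CPM in the KO-labelled libraries, against 12.5, 18.0, 16.8 and 14.7 CPM in the controls. Control 1 lay among the KO-labelled values (-0.41, SE 0.14, edgeR adjusted p = 0.032). Both calls were near the threshold. That of Polr1a was lost without any 1 of 6 libraries (all but KO-labelled 2 and control 1), at adjusted p up to 0.113, and with the replicate block (0.0693). That of Polr1b was lost without KO-labelled 1, 3 or 4 or control 2 or 3, at adjusted p up to 0.107. Without a filter on low counts neither passed (0.227 and 0.103). Polr1c, shared between polymerases I and III, had 16.7 to 19.8 CPM in the KO-labelled libraries and 17.2 to 20.2 CPM in the controls, with a log2 fold change of -0.01 (95% interval -0.24 to 0.21).

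Of 19 further genes of the Pol I machinery, 5 fell (26.3%) and none rose, against 13.9% and 16.1% of all genes tested. Without KO-labelled 1 the falls became 3. Polr1d, the other subunit shared with polymerase III, averaged 103 ± 16.7 CPM in the KO-labelled libraries and 165 ± 15.8 CPM in the controls (SD, n = 4 each; log2 fold change -0.68, SE 0.11, edgeR adjusted p = 0.000503). Taf1d, of the promoter selectivity factor, averaged 23.4 ± 2.15 CPM in the KO-labelled libraries and 35.1 ± 2.22 CPM in the controls (-0.59, SE 0.10). Polr1e (-0.47) and Polr2l, a small subunit common to all 3 polymerases (-0.44), fell as well.

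Outside the nucleolus, 8 of 23 genes of metabolism and growth that are commonly listed as MYC targets fell (34.8%) and 1 rose. Over all genes tested, 13.9% fell and 16.1% rose. Tfrc, the transferrin receptor, averaged 36.2 ± 0.431 CPM in the KO-labelled libraries and 77.1 ± 7.37 CPM in the controls (SD, n = 4 each; log2 fold change -1.09, SE 0.09, edgeR adjusted p = 9.8e-07). Umps, which completes UMP synthesis, averaged 20.5 ± 3.11 CPM in the KO-labelled libraries and 42.7 ± 6.54 CPM in the controls (-1.05, SE 0.13). Ppat, the first enzyme of purine synthesis (-0.65), and prohibitin, Phb (-0.44), fell by less. The 1 rise was lost without KO-labelled 1 or control 2, and 2 rose without KO-labelled 2.

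The ribosomal proteins themselves gave few calls. Of 82 cytosolic ribosomal protein genes, 3 fell (3.66%) and 2 rose (2.44%), fewer than the 13.9% and 16.1% of all genes, with a median log2 fold change of 0.03. Their summed level was 12149, 10751, 15804 and 13611 CPM in the KO-labelled libraries, against 13977, 12291, 11360.1 and 12652 CPM in the controls. The sums overlapped, and KO-labelled 2 and KO-labelled 3 were the extremes of all 8 libraries. Rpl22 averaged 434 ± 47.0 CPM in the KO-labelled libraries and 349 ± 15.2 CPM in the controls (0.31, SE 0.09), and Rpl24 averaged 6.94 ± 0.628 CPM in the KO-labelled libraries and 9.20 ± 1.41 CPM in the controls (-0.41, SE 0.14; SD, n = 4 each). Many of these genes have processed pseudogenes, and their counts depend on how shared reads were treated. The counts of calls moved with single libraries: 1 fell when KO-labelled 1 was left out and 5 when KO-labelled 3 was, and none rose without KO-labelled 3, KO-labelled 4, control 2 or control 3, whereas 4 rose without control 1. They moved with the settings too, with 6 falls by upper quartile scaling or voom, 5 by DESeq2 and 0 without a filter on low counts.

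**Figure D4:**
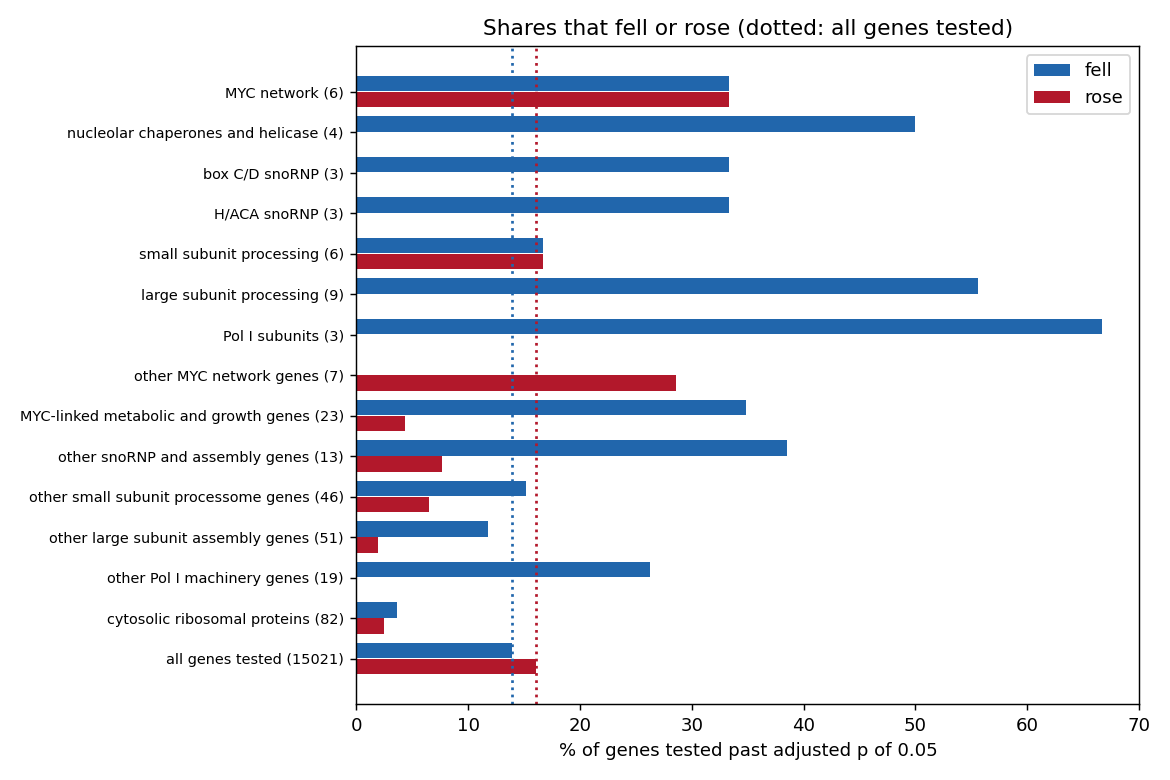
Share of the genes tested that fell (blue) or rose (red) at an adjusted p of 0.05, for the 7 member groups, the 7 wider lists and all genes, with the number of genes tested in brackets; dotted lines mark all genes (13.9% fell, 16.1% rose). Large subunit processing members (55.6%) and snoRNP assembly genes (38.5%) lie to the right of the blue line. The further large subunit assembly genes (11.8%), the further MYC network genes (0.00%) and the ribosomal proteins (3.66%) lie to its left. The other member groups and lists lie to its right, and groups of 3 or 4 genes change by large steps with 1 gene.

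In their annotation the members share some features. Of the 28 biogenesis genes, 5 carry snoRNA genes within their span on the same strand in GENCODE M21, namely Ncl, Nop56, Nop58, Wdr43 and Gnl3. Of these 5, 1 fell (Nop58), with a median log2 fold change of -0.18. Of the 23 without, 11 fell, or 47.8%, with a median of -0.29, and of all genes tested 13.9% fell. The difference between these sets was not tested. Besides the members named above, exons of Mxd4, Nop56, Wdr43, Rrp9, Bop1, Pes1, Rrp1b and Polr1a overlap those of a gene on the other strand. Since the strand setting of the counting is not given, reads of these overlaps cannot be told apart either. On chromosome 2 lie Mga, Nop10, Nop56 and Polr1b, of which Nop10 and Polr1b fell.

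The upstream sequences of Nop2, whose E-box lies before the start, and of Nop14 and Mycn, the members with the highest log2 fold changes, are shown as the 250 bases before the annotated start, 5′ to 3′ on the gene's strand. These 3 genes were picked with their values known and stand for no link of E-box and direction: 3 of 12 members that fell and 1 of 3 that rose held CACGTG. Capitals mark CACGTG in Nop2, and in Nop14 and Mycn the looser form CANNTG, which includes CACGTG and reads the same on both strands. Within the whole window CANNTG was present in 21 of 29 members, or 72.4%, against 67.5% of tested genes.
Nop2, chr6:125131633-125131882, plus strand: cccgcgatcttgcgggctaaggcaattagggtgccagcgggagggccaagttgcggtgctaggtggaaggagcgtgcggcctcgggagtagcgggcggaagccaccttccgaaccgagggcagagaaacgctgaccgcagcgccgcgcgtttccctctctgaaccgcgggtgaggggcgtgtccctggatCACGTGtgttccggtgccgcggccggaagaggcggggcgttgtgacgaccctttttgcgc
Nop14, chr5:34660149-34660398, minus strand: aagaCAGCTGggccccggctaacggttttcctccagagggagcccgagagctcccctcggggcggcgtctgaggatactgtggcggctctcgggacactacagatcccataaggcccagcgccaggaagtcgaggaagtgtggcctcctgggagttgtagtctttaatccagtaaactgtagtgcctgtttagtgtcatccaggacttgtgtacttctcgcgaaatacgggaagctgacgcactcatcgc
Mycn, chr12:12941837-12942086, minus strand: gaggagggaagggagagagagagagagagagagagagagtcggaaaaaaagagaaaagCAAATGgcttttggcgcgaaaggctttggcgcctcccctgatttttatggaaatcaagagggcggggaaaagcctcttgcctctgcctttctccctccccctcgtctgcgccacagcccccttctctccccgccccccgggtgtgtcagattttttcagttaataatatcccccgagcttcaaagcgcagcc
Each of Nop14 and Mycn held 1 CANNTG in these bases, and neither held CACGTG anywhere in its window.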

How the data were processed

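The deposited file holds raw counts of reads per gene symbol for 8 libraries. CASAVA, HTSeq 0.6.1p1, mm9 and NCBIM37 were used by the authors, per the submitters' processing notes. No aligner or strand setting is given in the sources used here; the kit was stranded, per the labels' protocols. Libraries were grouped by their titles. Genes were filtered with filterByExpr, scaled by TMM and tested with edgeR 4.0.16 (quasi-likelihood, R 4.3.3), with adjustment over all genes tested. CPM are counts scaled to the TMM library size, and 3 counts equalled 0.126 to 0.261 CPM. The SE is the log2 fold change over the square root of F. The fit was tested on simulated counts. Replicates within a group differed by more than sampling noise (chi-square per degree of freedom 4.45 to 36.2). Controls 2 and 3 were the most alike pair, at 4.45, and the next lowest value was 13.8, for KO-labelled 2 and 4. The labels do not say that replicates are separate embryos, so p-values reflect the spread among these libraries, which may be technical. Members and lists were chosen with earlier results of these data known. All members are named, plus up to 4 called genes per wider list of largest change and at least 5 CPM in the higher group, or the 2 most abundant. A single such gene is not reported here. Gene lengths, overlaps and snoRNA positions came from GENCODE M21 and promoters from RefSeq, both GRCm38, by symbol. Alternatives were DESeq2 1.42.0, limma 3.58.1 voom with quality weights, RLE and upper quartile scaling, robust dispersion, other filters, a replicate block and leaving out each library.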

Additional observations from a re-analysis of the deposited data

Results flagged for a closer look

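Of 68 groups of 4 libraries examined over the 34 members, 3 held a library far from the other 3, where chance gives about 1 in 20. Mycn had 4.44 CPM in KO-labelled 4, against 2.65 to 2.79 CPM in the other KO-labelled libraries. Heatr1 had 209 CPM in KO-labelled 1, against 175 to 180.0 CPM in the other KO-labelled libraries. Ddx21 had 522 CPM in control 4, against 414 to 426 CPM in the other controls.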

How the results depend on the processing

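Each member was refitted under 16 alternatives. Of the 17 members called, 9 kept sign and call in all 16 (Mycn, Mxd3, Npm1, Nop58, Utp20, Nop14, Nop2, Nop16 and Rrp1b), and none of the 17 changed sign. Of the 17 not called, 12 stayed so throughout. Over all genes, leaving out 1 library gave 1497 to 2193 falls. Without a filter on low counts, where the median of all genes was -0.13 and that of the 28 biogenesis genes -0.21, 8 of 34 members and 7 of 28 biogenesis genes fell. Leaving out 1 library gave 9 to 14 falls and 2 to 4 rises among the 34, and 7 to 12 falls and 1 to 2 rises among the 28. The 4 wider biogenesis lists had 23 falls (17.8%, against 13.9% of all genes) and 5 rises of 129; 15 to 25 fell and 1 to 8 rose without 1 library, 12 fell and 8 rose without a filter, 11 rose by voom, and 3 rose with upper quartile scaling and 3 with the replicate block. Whether the replicate numbers pair the libraries could not be settled with so few pairs. Same-numbered deviations correlated at 0.254, 0.279, -0.158 and 0.00987, and 4 of 8 libraries correlated best with their own number. With the replicate block 13 members fell, Polr1a being lost. The log2 difference in the Mycn to Myc ratio was 1.91 to 2.21 without 1 library. CACGTG was in 20.7% of member windows, 6.90% in the bases before the start alone, and CANNTG in 72.4%. Estimates near 0 changed sign without passing. Wdr43 was -0.01 with RLE scaling and by DESeq2, -0.04 with upper quartile scaling, -0.02 with the stricter filter, and -0.07 to 0.08 without 1 library. Rrp9 was -0.01 with upper quartile scaling and -0.02 to 0.12 without 1 library. Bop1 was 0.08 by voom and -0.15 to 0.01 without 1 library. Polr1c was 0.06 by voom and without a filter, and -0.05 to 0.03 without 1 library. Mxd4 was -0.10 to 0.14 without 1 library. The cause of these changes was not tested.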
